A study of Homo sapiens with 15 samples.

Results

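RNA-seq gene counts of Huh7 cells made senescent with palbociclib were compared between cells infected with a short hairpin RNA against THBD (shTHBD) and cells infected with a non-targeting hairpin (control). These are 6 of the 15 libraries of the series, 3 in each group, chosen by their labels. Huh7 is a line derived from a human hepatocyte carcinoma, and palbociclib inhibits the cyclin-dependent kinases CDK4 and CDK6. All 6 Huh7 libraries carry a hairpin and the drug, so no untreated or uninfected Huh7 library was analysed here. No label states the dose, the days of treatment or the hairpin sequence. The shTHBD libraries share 1 title number and 1 cell line, so an effect of this hairpin on other transcripts and an effect through THBD cannot be told apart. The other 9 libraries come from IMR90, a lung fibroblast line in senescence induced by HRAS G12V, and 6 of them are used at the end for a comparison between lines. The study asked whether THBD is needed when cells become senescent.

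THBD encodes thrombomodulin, a membrane protein that binds thrombin and turns it from a clotting enzyme into an activator of protein C. Activated protein C, bound to the receptor encoded by PROCR, can cut protease-activated receptors, which signal through G proteins. Palbociclib keeps the retinoblastoma protein unphosphorylated, so that E2F factors stay bound and the genes of DNA replication and, through the DREAM complex, those of mitosis stay low. Arrest that lasts is called senescence and is known for a secretory programme of cytokines, chemokines and proteases (SASP), driven largely by NF-kB.

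The hairpin's target could not be followed in these cells. THBD (chr20:23045633-23049741, minus strand, GRCh38) had 0, 0 and 6 counts in the control libraries and 0, 0 and 0 in the shTHBD libraries, and was left out by the filter on low counts. A count of 3, taken as the floor of detection, corresponds to 0.119 to 0.155 counts per 1000000 counts of the library (CPM), so 5 of 6 libraries held none and a difference in THBD was not detectable at this depth; the floor covers counting error only. The THBD count therefore does not check the labels of either group.

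The libraries held 19328182 to 20020683 counts in control and 22479132 to 25236178 in shTHBD. Mitochondrial transcripts took 7.26 to 8.35% of the counts in control and 7.83 to 9.94% in shTHBD, with the highest share in shTHBD replicate 3. That library stood apart: its counts differed from those of the other shTHBD libraries by a chi-square of 9.99 and 12.5 per degree of freedom, against 4.31 between those 2 and 3.57 to 5.26 among the controls. Genes with exactly 1 count numbered 1992 to 2634 in control and 1378 to 1711 in shTHBD, although the latter libraries were deeper.

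Differences between the groups ran across the transcriptome. Of 17474 genes tested, 9280 passed an adjusted p of 0.05, which is 53.1% of them. In shTHBD 4518 genes rose (25.9% of those tested) and 4762 fell (27.3%), and the median log2 fold change over all tested genes was 0.002. A change of at least 2-fold was called for 2384 genes (13.6%), of which 921 rose and 1463 fell. Without shTHBD replicate 3, 9189 genes were called and 8589 of the 9280 calls, or 92.6%, stayed, all with the same sign. The groups did not overlap for 10269 of the 17474 tested genes. Of the 9280 called genes this held for 8837, so it is usual here and sets no named gene apart. With so many calls, a list of genes is described here by its counts in each direction and its median beside these shares. Values are CPM in the order of replicates 1, 2 and 3, followed by the log2 fold change of shTHBD over control with its standard error (SE, taken from the test statistic) and adjusted p. In RNA of whole cultures, a lower level in every cell and a smaller share of cells with the transcript cannot be told apart.

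**Figure D1:**
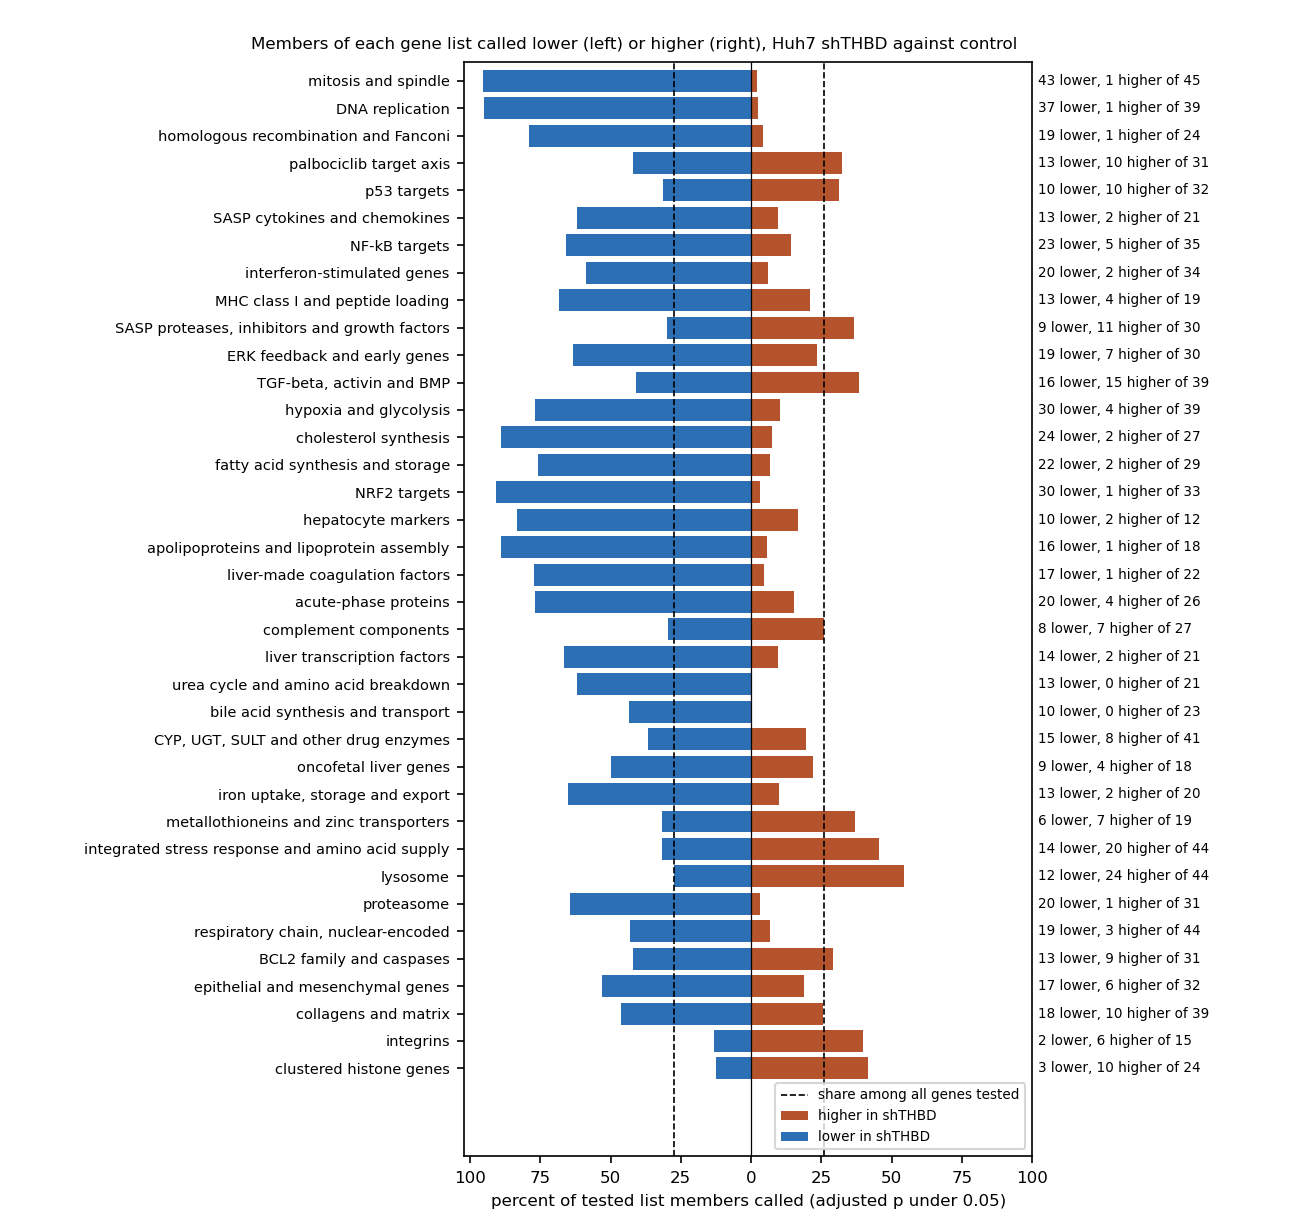
Share of the tested members of 37 gene lists called lower (left, blue) or higher (right, orange) in shTHBD, in percent; dashed lines mark the shares among all tested genes, 27.3% lower and 25.9% higher, and the counts stand on the right. Lists of mitosis, DNA replication, NRF2 targets and cholesterol synthesis lie far past the dashed line on the lower side, and lysosome and clustered histone genes reach past it on the higher side.

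Genes of cell division were lower in shTHBD than in control, although both groups were treated with palbociclib. Of 45 tested genes of mitosis and the spindle, 43 fell and 1 rose, with a median log2 fold change of −1.93. Of 39 genes of DNA replication, 37 fell and 1 rose (median −1.41), and of 24 genes of homologous recombination and the Fanconi pathway 19 fell and 1 rose (median −1.41). The promoters of MKI67, PLK1 and E2F1 are shown because they hold the letters through which these groups are known to be controlled. Each line gives the 160 bases before the gene's start from RefSeq on GRCh38.p14, 5′ to 3′ on the gene's own strand, for MKI67 (chr10:128126424-128126583, minus strand), PLK1 (chr16:23678729-23678888, plus strand) and E2F1 (chr20:33686386-33686545, minus strand). Capitals mark the cell-cycle homology region TTTGAA and the CCAAT box, the latter written ATTGG where it lies on the other strand, in MKI67 and PLK1, and the E2F word TTGGCGC in E2F1.
MKI67: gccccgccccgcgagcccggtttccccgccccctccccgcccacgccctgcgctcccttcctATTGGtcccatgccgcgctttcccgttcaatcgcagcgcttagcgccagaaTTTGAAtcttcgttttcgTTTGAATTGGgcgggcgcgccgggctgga
PLK1: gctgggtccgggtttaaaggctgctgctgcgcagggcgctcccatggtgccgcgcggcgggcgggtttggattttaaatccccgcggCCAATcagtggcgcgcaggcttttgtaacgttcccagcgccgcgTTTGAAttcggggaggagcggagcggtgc
E2F1: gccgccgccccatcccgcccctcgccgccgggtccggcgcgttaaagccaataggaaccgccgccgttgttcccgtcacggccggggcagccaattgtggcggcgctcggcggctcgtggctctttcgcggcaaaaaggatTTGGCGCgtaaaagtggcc
In MKI67 the word TTTGAA starts 47 and 29 bases before the start, and the second of these shares 1 base with the box written ATTGG. In PLK1 it starts 29 bases before the start, with CCAAT at 73.

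Across the lists the same words were counted on both strands of the 250 bases before each start. TTTGAA stood in 18 of 36 mitosis promoters (50%), against 9.07% of the 11987 tested genes with a RefSeq promoter and 13.6% of all 27305 promoters, and in 1 of 35 replication promoters (2.86%). CCAAT stood in 25 of the 36 mitosis promoters (69.4%), against 35.1% of the tested genes and 33% of all promoters. An E2F word, TTCCCGC or TTGGCGC, stood in 17 of 35 replication promoters (48.6%), 7 of 22 recombination promoters (31.8%) and 5 of 36 mitosis promoters (13.9%), against 12% of the tested genes and 7.95% of all. These are matches of letters, which describe the lists and name no cause, and the same holds for the words counted in other lists below.

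Both kinases that palbociclib inhibits rose, while cyclins D1 and D3 fell. CDK4, a kinase that palbociclib inhibits, was at 87.3, 88.4 and 98.5 CPM in control and 118, 121 and 109.8 in shTHBD (0.32 ± 0.0651 (SE), adjusted p = 9.3e-05). Its partner kinase CDK6 went from 95.9, 98 and 92.3 to 127, 128 and 133 (0.41 ± 0.0639 (SE), adjusted p = 1.6e-06). The shTHBD libraries were the higher ones for both kinases and the groups did not overlap. For CDK4, 44.2% of the exon bases lie under another gene's row, so its counts are uncertain. Cyclin D1, CCND1, which activates both kinases, was 2.57-fold lower, at 568, 558 and 564 CPM in control and 222, 214 and 234 in shTHBD (−1.36 ± 0.0567 (SE), adjusted p = 1e-19). Cyclin D3, CCND3, fell by a smaller step (−0.65), and cyclin D2, CCND2, which had at most 2 counts in a control library, rose from 0.102, 0 and 0 to 0.581, 0.674 and 0.489 CPM (adjusted p = 0.00064). CCND2 passed the filter on low counts only through its shTHBD libraries, so its test lends this rise no support. It is among the 10 risen genes counted below. The retinoblastoma gene RB1 rose from 52.6, 61.6 and 53.1 to 73.3, 73.6 and 78.2 CPM (0.40 ± 0.0763 (SE), adjusted p = 3.9e-05), whereas the other pocket proteins RBL1 (0.32, adjusted p = 0.12) and RBL2 (0.03, adjusted p = 0.77) did not pass the test. Within this axis of 31 tested genes, 13 fell and 10 rose, and the falls lay mostly among the later cyclins and kinases, 6 of 7, and the E2F factors, 4 of 10.

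E2F1, an activator of S-phase genes, showed 37.6, 38.7 and 40.1 CPM in control and 9.09, 8.48 and 10.8 in shTHBD (−2.06 ± 0.111 (SE), adjusted p = 7.7e-17). CDK2, the kinase that acts after CDK4 and CDK6, fell from 38.6, 43 and 39.6 to 9.01, 8.88 and 6.89 CPM (−2.32 ± 0.111 (SE), adjusted p = 3.5e-18), and CDK1, the kinase of mitotic entry, from 31.2, 33.8 and 28.6 to 7.97, 7.73 and 7.12 (−2.06 ± 0.116 (SE), adjusted p = 2.4e-16). The mitotic cyclins followed, with CCNB1 at 32.3, 33.5 and 32.3 against 9.09, 8.84 and 5.65 CPM (−2.08) and CCNB2 at 22.6, 27.2 and 24.7 against 4.94, 3.69 and 5.52 (−2.43). In each of these 5 genes every shTHBD library was below every control library. CCNE1, the cyclin E that pairs with CDK2, fell less (−0.39 ± 0.132 (SE), adjusted p = 0.013, but 0.11 without control replicate 3), and CCNE2 was low in both groups and not called, at 1.37, 1.4 and 1.03 and 1.49, 1.11 and 1.51 CPM (adjusted p = 0.88).

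Proliferation markers fell as well. MKI67, which encodes the Ki-67 antigen of cycling cells, was at 18.2, 18.2 and 19.4 CPM in control and 2.49, 1.9 and 1.47 in shTHBD, 9.67-fold lower (−3.27 ± 0.172 (SE), adjusted p = 4.4e-17). MYBL2, a factor that joins the DREAM subunits to switch on mitotic genes, fell from 184, 182 and 187 to 25.3, 29.3 and 25.3 CPM (−2.82 ± 0.0714 (SE), adjusted p = 3.1e-25). The mitotic kinases PLK1, at 17.4, 18.9 and 20.8 against 5.39, 6.18 and 5.07 CPM (−1.80), and AURKB, at 14, 13.2 and 14.5 against 1.95, 1.78 and 1.47 (−3.03), and the spindle motor KIF2C (−3.21) were lower as well. All 8 kinases, 8 kinesins and 8 centromere genes of the list fell. FZR1 was the tested mitosis gene that was not called, and NUSAP1, the 1 that rose (1.41 ± 0.44 (SE), adjusted p = 0.0074), was low, at 0.61, 0.849 and 0.414 against 2.24, 1.58 and 1.29 CPM. For NUSAP1, 81.4% of its exon bases lie under another gene's row, so its counts are uncertain, and it was not called without shTHBD replicate 1 (adjusted p = 0.058).

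Replication genes fell at each step. MCM5, a subunit of the helicase that licenses origins, went from 45.3, 39.2 and 43.1 to 4.23, 7.13 and 4.36 CPM (−3.04 ± 0.136 (SE), adjusted p = 7e-19), and GINS4, part of the active helicase, from 46.7, 46.9 and 49.5 to 7.8, 6.86 and 7.7 (−2.71 ± 0.105 (SE), adjusted p = 1.8e-20). MCM10, which activates the helicase (−2.62), and UHRF1, which carries DNA methylation through replication (−2.88), fell too. Nucleotide supply went the same way, with thymidine kinase TK1 at 47.1, 47.7 and 47.7 against 9.34, 8.04 and 11.3 CPM (−2.34) and the ribonucleotide reductase subunit RRM2 at 13.1, 14.4 and 14.4 against 2.45, 2.58 and 3.11 (−2.39). The exception was GMNN, geminin, an inhibitor of licensing, which rose by a small amount (0.24 ± 0.0907 (SE), adjusted p = 0.026) and was no longer called without shTHBD replicate 3 (adjusted p = 0.082), control replicate 1 (0.12) or control replicate 2 (0.056), nor with no filter beyond 1 count (0.074). The fall extended to repair by recombination, where EME1, a subunit of a structure-specific nuclease, fell from 14.6, 15.1 and 18.3 to 1.41, 0.951 and 1.2 CPM (−3.78 ± 0.194 (SE), adjusted p = 2.4e-17) and RAD54L, a motor of strand exchange, from 16.3, 15.9 and 13.8 to 1.25, 1.43 and 0.756 (−3.76 ± 0.201 (SE), adjusted p = 6.8e-17). FANCL, which was the member that rose (0.37, adjusted p = 0.036), lost its call without shTHBD replicate 2 (adjusted p = 0.071), shTHBD replicate 3 (0.1), control replicate 1 (0.08) or control replicate 3 (0.26).

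CDK inhibitors did not fall with the division genes, except for CDKN1A. CDKN1A, which encodes p21, was low in Huh7, at 8.08, 6.49 and 6.83 CPM in control and 5.77, 5.35 and 3.83 in shTHBD (−0.55 ± 0.189 (SE), adjusted p = 0.015), and was not called without shTHBD replicate 3 (adjusted p = 0.06) or control replicate 1 (0.1). CDKN2B, the INK4 inhibitor p15, rose from 158, 161 and 164 to 304, 314 and 275 CPM (0.85 ± 0.0571 (SE), adjusted p = 1.9e-14), CDKN1B, p27, from 47.9, 50 and 50.7 to 85.4, 82.1 and 78.9 (0.70 ± 0.0707 (SE), adjusted p = 3.5e-10), and CDKN1C, p57, from 8.59, 8.94 and 7.45 to 22.4, 17 and 15 (1.09 ± 0.143 (SE), adjusted p = 7.2e-08). These 3 inhibitors were higher in every shTHBD library than in any control. CDKN2A, the p16 locus, overlapped between groups, with 42.9, 38.1 and 47.8 against 47.6, 43.1 and 39.1 CPM (adjusted p = 0.89). Huh7 is known to carry mutant p53, and the p53 target list held 10 risen and 10 fallen genes of 32 tested (median −0.01): BTG2, an antiproliferative factor, rose (1.11) and so did BBC3, the death gene PUMA (1.14), while the repair gene DDB2 (−2.08) and the death receptor TNFRSF10B (−1.51) fell. LMNB1, lamin B1, whose loss is a common sign of senescence, was at 17.3, 16.7 and 17.5 CPM in control and 14.9, 15.4 and 10.6 in shTHBD (−0.36 ± 0.127 (SE), adjusted p = 0.017), with an adjusted p of 0.1 without shTHBD replicate 3 and 0.057 without control replicate 1.

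**Figure D2:**
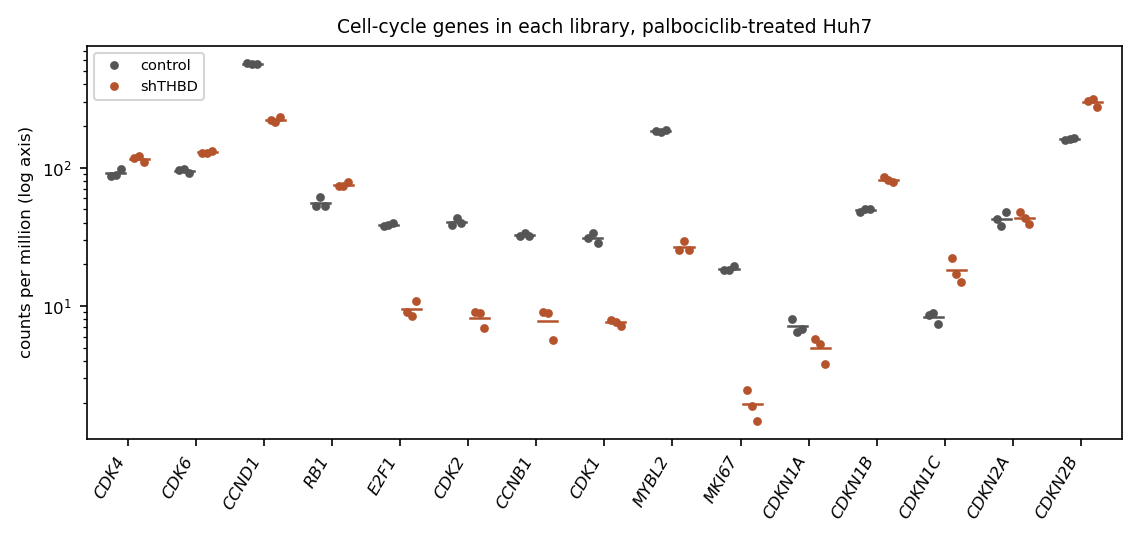
CPM (log axis) of 15 genes of the CDK4 and CDK6 axis, cell division and the CDK inhibitors in each of the 3 control (grey) and 3 shTHBD (orange) libraries; bars mark the group means. E2F1, CDK2, MYBL2 and MKI67 lie lower in every shTHBD library, CDK4, CDK6, RB1, CDKN1B, CDKN1C and CDKN2B lie higher, and the CDKN2A points overlap.

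The genes around thrombomodulin were measured even though THBD was not. All 8 tested genes of the thrombomodulin and tissue factor pathway fell. Prothrombin, F2, the precursor of thrombin, was at 39.4, 44 and 46 CPM in control and 13.1, 15.4 and 14.9 in shTHBD (−1.60 ± 0.0998 (SE), adjusted p = 3.1e-15). Tissue factor, F3, which starts clotting, fell from 79.6, 83.6 and 71.3 to 37.4, 35.3 and 34.4 CPM (−1.16 ± 0.079 (SE), adjusted p = 3.1e-14), and its inhibitor TFPI from 92.4, 96.6 and 77.6 to 45.5, 39.5 and 42.5 (−1.09 ± 0.0827 (SE), adjusted p = 4.3e-13). CPB2, the carboxypeptidase that thrombin bound to thrombomodulin activates, was at 61.7, 64.8 and 53.8 against 19.3, 25.4 and 21.4 CPM (−1.47 ± 0.0969 (SE), adjusted p = 1.3e-14). None of these 4 genes overlapped between groups. Protein C itself, PROC, which the thrombin and thrombomodulin complex cuts (−0.51), its cofactor PROS1 (−0.36) and its receptor PROCR, at 27.7, 28.6 and 26.3 against 21.1, 22.6 and 18.6 CPM (−0.43 ± 0.1 (SE), adjusted p = 0.00044), fell by less than 2-fold.

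Of the protease-activated receptors tested, F2R and F2RL2 rose. F2R, protease-activated receptor 1, which thrombin and activated protein C cut, was 2.17-fold higher in shTHBD, with 55.1, 54.2 and 53.3 CPM in control and 116, 123 and 121 in shTHBD (1.12 ± 0.0673 (SE), adjusted p = 1.3e-15). F2RL2, receptor 3, rose from 46.9, 46.1 and 43.1 to 62.2, 51.5 and 64.4 CPM (0.36, adjusted p = 0.00068), and F2RL1, receptor 2, overlapped between groups, at 30.5, 30.5 and 27.8 against 27.8, 29.1 and 27.1 CPM (adjusted p = 0.33). All F2R values in shTHBD lay above all control values. F2RL3, receptor 4, did not reach the count filter. Of 10 G protein and effector genes downstream, 2 rose, GNAQ (0.64) and PLCB1 (0.40), and 4 fell, among them PLCB3 (−0.75).

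Most SASP chemokines tested were lower, and growth factors went both ways. Of 21 tested SASP cytokines and chemokines 13 fell and 2 rose (median −0.85), and 9 more lay under the filter, among them IL1A. CCL20, the ligand of CCR6 that draws lymphocytes, fell 14.3-fold, from 250, 283 and 282 to 19.4, 20.8 and 17.8 CPM (−3.84 ± 0.0728 (SE), adjusted p = 2.8e-28), and was the second-largest fall among genes with at least 10 CPM in a group. CXCL1, a neutrophil chemokine, went from 278, 277 and 275 to 54.8, 62.7 and 53.7 CPM (−2.31 ± 0.0643 (SE), adjusted p = 3.8e-24), and CXCL8, interleukin 8, from 230.4, 248 and 239.9 to 67.6, 65.1 and 68.1 (−1.87 ± 0.062 (SE), adjusted p = 3.1e-22). In these 3 chemokines the shTHBD libraries were all far below the controls. Their promoters are shown because each holds an NF-kB word, GGNNTTTCC, which is in capitals, for CXCL8 (chr4:73740409-73740568, plus strand), CXCL1 (chr4:73869233-73869392, plus strand) and CCL20 (chr2:227813682-227813841, plus strand), 160 bases before the start from RefSeq on GRCh38.p14. In CCL20 the word is read on the other strand.
CXCL8: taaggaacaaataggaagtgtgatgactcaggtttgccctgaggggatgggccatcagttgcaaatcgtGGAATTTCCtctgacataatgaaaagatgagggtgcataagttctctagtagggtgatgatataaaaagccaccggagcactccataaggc
CXCL1: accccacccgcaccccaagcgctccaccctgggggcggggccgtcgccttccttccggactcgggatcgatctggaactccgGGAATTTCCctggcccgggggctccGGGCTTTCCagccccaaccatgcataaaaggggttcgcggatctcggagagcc
CCL20: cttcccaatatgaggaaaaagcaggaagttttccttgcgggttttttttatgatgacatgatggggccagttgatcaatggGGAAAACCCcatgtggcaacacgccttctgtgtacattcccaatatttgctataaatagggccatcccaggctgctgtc
The word stood 91 bases before the start in CXCL8, 78 and 53 in CXCL1 and 79 in CCL20. It was present on either strand in 10 of 16 promoters of the SASP cytokine list (62.5%) and 16 of 29 of the NF-kB target list (55.2%), against 5.85% of the tested genes and 5.48% of all promoters. The NF-kB list holds genes known as targets and shares CCL20, CXCL1 and CXCL8 with the SASP list. These matches of letters describe the lists, whatever their calls, and name no cause.

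Every other CXC chemokine tested fell except CXCL12. CXCL6 went from 331, 373 and 354 to 167, 171 and 153 CPM (−1.13), CXCL2 from 27.8, 28.2 and 31.4 to 16.7, 12.2 and 15.4 (−1.01) and CXCL5 from 832, 955 and 867 to 706, 680.2 and 713 (−0.37). CXCL10, which interferon induces, was low and fell further, from 7.83, 8.19 and 5.85 to 1.58, 0.872 and 0.178 CPM (−3.07 ± 0.329 (SE), adjusted p = 1.3e-09). IL18, a cytokine of the inflammasome, went from 92.3, 89.5 and 91.2 to 37.1, 41.2 and 33.1 CPM (−1.32). IL6, the best-known SASP interleukin, overlapped between groups at 3.05, 3.4 and 3 against 1.78, 2.46 and 3.74 CPM (adjusted p = 0.44). The 2 that rose were near the floor: CXCL12 went from 0.0508, 0 and 0.103 to 1.41, 1.15 and 1.65 CPM (4.61 ± 0.727 (SE), adjusted p = 2.1e-06) and CCL26 from 0.457, 0.0999 and 0.362 to 0.872, 0.951 and 1.07 (adjusted p = 0.019, but 0.05 without shTHBD replicate 3 and 0.14 without control replicate 2). Both passed the filter on low counts only through the shTHBD libraries. Their tests could hardly have shown a fall and lend these 2 rises no support.

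Of 35 tested NF-kB targets 23 fell and 5 rose (median −0.50). The fallen ones were mainly effectors, 17 of 21, whereas the subunits moved little, with 2 of 5 fallen, none by 2-fold. Of the feedback inhibitors, TNFAIP3, A20, rose slightly (0.22 ± 0.0687 (SE), adjusted p = 0.0082) and NFKBIA was not called (−0.19, adjusted p = 0.068); without shTHBD replicate 1 the first lost its call (adjusted p = 0.063) and the second was called lower (−0.29, adjusted p = 0.018). Of 30 tested proteases, inhibitors and growth factors of the SASP, 11 rose and 9 fell (median −0.06), shares near those among all tested genes, and of the 14 growth factors among them 5 rose and 3 fell (median 0.01). HBEGF, a ligand of the EGF receptor, rose from 29.9, 32.7 and 30.5 to 112, 104 and 99.3 CPM (1.73 ± 0.0747 (SE), adjusted p = 2.8e-19), and AREG, another such ligand, from 9.81, 9.69 and 14.5 to 29.8, 35.6 and 30.8 (1.47 ± 0.125 (SE), adjusted p = 6.9e-12). INHBA, the activin A subunit, rose from 2.03, 2.15 and 1.97 to 5.81, 8.4 and 8.85 CPM (1.88 ± 0.222 (SE), adjusted p = 1e-08). All 3 ligands were higher in every shTHBD library. The urokinase gene PLAU fell from 24.4, 26.3 and 20.3 to 6.14, 7.25 and 8.23 CPM (−1.75 ± 0.137 (SE), adjusted p = 1e-12), and SERPINE2, a serpin that inhibits it, from 69.6, 68.7 and 69 to 23, 22.6 and 18.4 (−1.72). GDF15, a stress cytokine, overlapped at 90, 84.4 and 94.7 against 94, 83.2 and 73.1 CPM (adjusted p = 0.13), but was called lower without shTHBD replicate 1 (−0.22, adjusted p = 0.028).

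More interferon-stimulated and antigen-presentation genes fell than rose. Of 34 tested interferon-stimulated genes 20 fell and 2 rose, PARP9 (0.83) and GBP2 (1.45), with a median of −0.56. IFITM3, which blocks viral entry, fell from 258, 254 and 277 to 50.1, 54.6 and 44.8 CPM (−2.43 ± 0.0669 (SE), adjusted p = 2.8e-24) and OAS3, a sensor of double-stranded RNA, from 82, 74.3 and 81 to 13.2, 16.2 and 15 (−2.44 ± 0.0908 (SE), adjusted p = 5.8e-21). STING1, the adaptor of the cytosolic DNA sensor, was at 2.74, 5 and 4.66 against 1.41, 2.02 and 0.845 CPM (−1.55, adjusted p = 7e-05). The shTHBD values of these 3 genes lay wholly below the control values.

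HLA-C, a class I heavy chain that presents peptides on the cell surface (chr6:31268749-31272130), was at 219.5, 214 and 245 CPM in control and 18.3, 19 and 15.2 in shTHBD, 13.2-fold lower (−3.72 ± 0.0784 (SE), adjusted p = 1.7e-27). HLA-B fell from 24.6, 23.9 and 23.3 to 6.64, 5.07 and 3.78 CPM (−2.24 ± 0.146 (SE), adjusted p = 1.1e-14) and HLA-E from 93.4, 95.6 and 103 to 55.3, 49.7 and 49.2 (−0.95). Class I genes share long near-identical stretches, so the split of reads among them is uncertain. The light chain B2M rose, from 934, 972 and 989.7 to 1565, 1556 and 1449 CPM (0.63 ± 0.0488 (SE), adjusted p = 7.5e-13), and so did NLRC5, the transactivator of class I genes, from 2.85, 3.35 and 3.36 to 15.3, 15.7 and 16.4 (2.28 ± 0.158 (SE), adjusted p = 5.1e-14). These 3 heavy chains and the light chain thus moved in opposite directions. Of 19 tested genes of class I and peptide loading, the light chain included, 13 fell and 4 rose (median −1.06), but their summed level rose from 3840 to 3975 CPM in control to 4082 to 4408 in shTHBD, B2M being an abundant member. All 5 immunoproteasome genes of the list fell, for example PSMB8 (−1.21) and PSMB10 (−1.49), as did the peptide transporter subunit TAP2 (−1.70), whereas TAP1 was not called (−0.13, adjusted p = 0.32).

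Transcripts known to follow ERK signalling were lower, including all 6 feedback inhibitors of the list. Of 30 tested genes 19 fell and 7 rose (median −0.54). ETV4, an ETS factor induced by ERK, fell 14.2-fold, from 36.4, 38.7 and 40.1 to 3.32, 3.05 and 1.82 CPM (−3.83 ± 0.142 (SE), adjusted p = 5.5e-21), and ETV5 from 45.4, 48 and 47.6 to 6.6, 6.02 and 5.34 (−3.00 ± 0.108 (SE), adjusted p = 2.6e-21). SPRY4, a feedback inhibitor of receptor signalling, fell from 73.1, 75 and 75.3 to 13, 12.8 and 13.9 CPM (−2.52 ± 0.0877 (SE), adjusted p = 1.1e-21), and DUSP6, the phosphatase that switches ERK off, from 36, 38.9 and 36.9 to 8.09, 7.53 and 9.52 (−2.18 ± 0.113 (SE), adjusted p = 3.1e-17). The groups were well apart for each. Against this direction, JUN rose from 176, 164 and 198 to 313, 315 and 276 CPM (0.72), and MYC was not called, at 89.5, 84.4 and 87 against 86.5, 90.2 and 74.1 (adjusted p = 0.31).

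**Figure D3:**
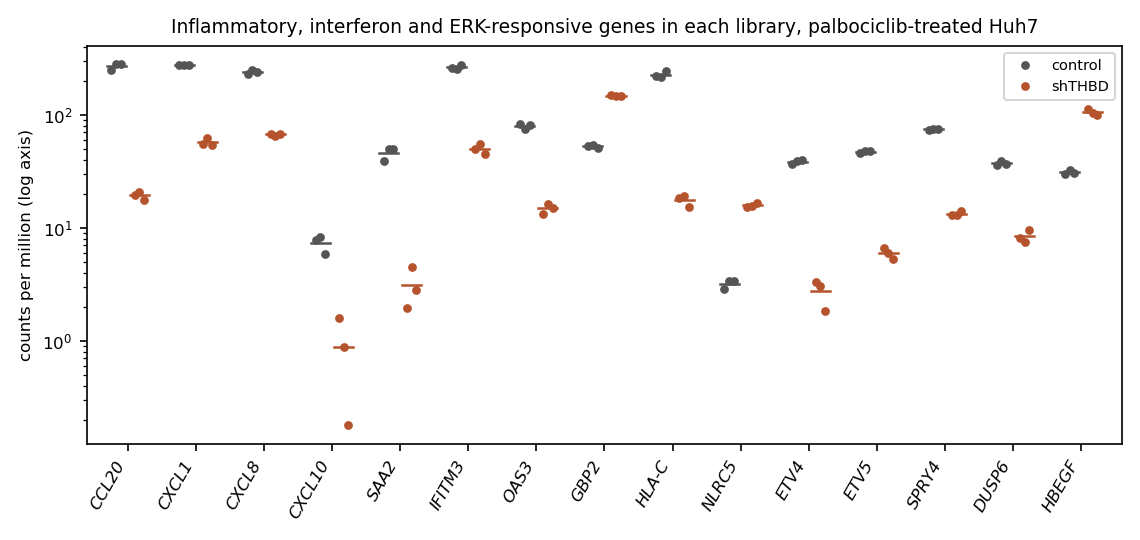
CPM (log axis) of 15 inflammatory, interferon, class I and ERK-responsive genes in each control (grey) and shTHBD (orange) library; bars mark group means. In the plot 12 of the genes lie lower in every shTHBD library, and GBP2, NLRC5 and HBEGF lie higher in every shTHBD library.

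Genes of the TGF-beta family were divided, 16 fallen and 15 risen of 39 tested (median −0.02). Among ligands TGFB3 fell (−2.52 ± 0.227 (SE), adjusted p = 2.8e-11) and so did INHBE, a liver activin subunit, from 15.8, 18 and 19.2 to 3.94, 4.36 and 4.36 CPM (−2.09), while TGFB2 rose (0.74). Of 11 receptors 6 rose and 3 fell, and the co-receptor TGFBR3 rose from 65.5, 66.7 and 62.6 to 187, 187 and 211 CPM (1.56 ± 0.0693 (SE), adjusted p = 5.7e-19). Targets went both ways. CCN2, connective tissue growth factor, fell from 854, 851 and 883 to 301, 294 and 269.6 CPM (−1.61 ± 0.0531 (SE), adjusted p = 2.6e-22) and TGFBI, a secreted matrix protein, from 1170, 1138 and 1133 to 390.1, 392 and 367 (−1.61 ± 0.0518 (SE), adjusted p = 1.4e-22), but TAGLN, the actin-binding protein transgelin, rose from 34.6, 40 and 40.7 to 149, 170.2 and 144 (1.98 ± 0.0738 (SE), adjusted p = 6.4e-21). For TAGLN, 47.8% of the exon bases lie under another gene's row, so its counts are uncertain. Of 20 YAP targets 11 fell and 7 rose. CCN2 is also one of these, and CCN1, its usual companion, was not called (−0.05, adjusted p = 0.49).

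Hypoxia-responsive and glycolytic genes were lower as a group, with 30 fallen and 4 risen of 39 tested (median −0.78). SLC2A1, the glucose transporter GLUT1, fell 5.69-fold from 98.8, 88.3 and 103 to 17.7, 16.2 and 18 CPM (−2.51 ± 0.0855 (SE), adjusted p = 6e-22), SLC16A3, which exports lactate, from 166, 159 and 189 to 31.4, 36.4 and 30.4 (−2.41 ± 0.076 (SE), adjusted p = 8.7e-23) and NDRG1, a stress and hypoxia target, from 557, 549 and 555 to 98.5, 101 and 96.3 (−2.52 ± 0.0564 (SE), adjusted p = 8.9e-27). Of 20 glycolysis genes 18 fell. PKM, pyruvate kinase, was at 1164, 1147 and 1175 against 355, 376 and 351 CPM (−1.72 ± 0.0519 (SE), adjusted p = 3.1e-23) and LDHA, lactate dehydrogenase, at 557, 571 and 557 against 171, 167 and 176 (−1.74 ± 0.0559 (SE), adjusted p = 1.4e-22). No library of one group reached the other group for these 5 genes. The 4 that rose were ENO2 (1.03), KDM3A (0.30), P4HA2 (0.22) and EGLN1 (0.40), the last with 50% or more of its exon bases under another gene's row.

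Most lipid synthesis genes fell. Of 27 tested cholesterol genes 24 fell and 2 rose, INSIG1 (0.64) and SC5D (0.33), with a median of −0.70. SCAP, the escort of the sterol-sensing factors, fell from 408, 382 and 408 to 139.8, 139 and 152 CPM (−1.50 ± 0.0603 (SE), adjusted p = 3.9e-20), and EBP, a sterol isomerase, from 71.3, 69.3 and 73.4 to 24.6, 27.1 and 24.8 (−1.51 ± 0.0803 (SE), adjusted p = 5.6e-17). SQLE, squalene epoxidase, went from 62.1, 67.3 and 67.5 to 32.5, 31.9 and 29.7 CPM (−1.09 ± 0.0786 (SE), adjusted p = 1.2e-13). All 3 were lower in every shTHBD library. HMGCS1, the synthase early in the pathway, fell less (−0.80 ± 0.0552 (SE), adjusted p = 4.3e-14), and the factor SREBF2 was not called (−0.08, adjusted p = 0.2). The sterol word TCACNCCAC stood in 1 of 20 promoters of this list (5%), against 0.843% of the tested genes and 0.875% of all, and CCAAT in 16 of the 20 (80%).

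Of 29 fatty acid synthesis and storage genes 22 fell and 2 rose, ACACB (0.63) and PPARG (0.26), the latter not called without control replicate 2 (adjusted p = 0.079) or 3 (0.065). SCD, the desaturase that makes oleate, fell from 928, 937 and 915 to 324, 326 and 319 CPM (−1.55 ± 0.0519 (SE), adjusted p = 3.8e-22), FASN, fatty acid synthase, from 444, 400.4 and 467 to 189, 196 and 175 (−1.25 ± 0.0597 (SE), adjusted p = 3.3e-18), and the factor SREBF1 from 103, 102 and 114 to 64.4, 58.3 and 55.8 (−0.87). Each was lower in all shTHBD libraries. Oxidation genes were mixed, with 14 fallen and 5 risen of 24; FABP1, the liver fatty acid carrier (−2.83), and ACAA1, the peroxisomal thiolase (−1.82), showed the widest falls of those with at least 5 CPM in a group. ACADVL, a mitochondrial dehydrogenase, fell (−0.88) with shTHBD replicate 3 as the lowest library, at 154, 164 and 83.7 CPM against 212, 252 and 258 in control. Of 16 gluconeogenesis and glycogen genes 10 fell and 1 rose; PC, pyruvate carboxylase, went from 150, 143 and 157 to 50.3, 52.4 and 47.7 CPM (−1.61).

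NRF2 targets, the antioxidant genes that NFE2L2 drives, fell almost throughout: 30 of 33 tested, with 1 risen, MAFG (0.62), and a median of −0.81. TXNRD1, thioredoxin reductase, was among the most abundant transcripts to change and went from 1827, 2020 and 1887 to 319, 323 and 281 CPM, 6.34-fold lower (−2.66 ± 0.0559 (SE), adjusted p = 1.7e-27). AKR1B10, an aldehyde reductase high in liver cancer, fell from 489, 501 and 489.5 to 74.5, 72.4 and 67.8 CPM (−2.81 ± 0.0586 (SE), adjusted p = 1.7e-27), and NQO1, a quinone reductase, from 404, 403 and 385 to 95.8, 97.8 and 96.5 (−2.07 ± 0.0583 (SE), adjusted p = 5e-24). GCLM, a subunit of the enzyme that starts glutathione synthesis, was at 258, 288 and 261 against 89.7, 86.1 and 92.8 CPM (−1.62). These 4 genes separated the groups completely. NFE2L2 itself was at −0.14 ± 0.0535 (SE), adjusted p = 0.031, a call that was lost under upper-quartile scaling (adjusted p = 0.18), with total counts only (0.06), with DESeq2 size factors (0.057), with the replicate block (0.091) and without control replicate 1 (0.13), control replicate 2 (0.053), shTHBD replicate 1 (0.15) or shTHBD replicate 2 (0.1). The antioxidant word TGACNNNGC stood in 6 of 24 promoters of this list (25%), against 12.2% of the tested genes and 11% of all.

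**Figure D4:**
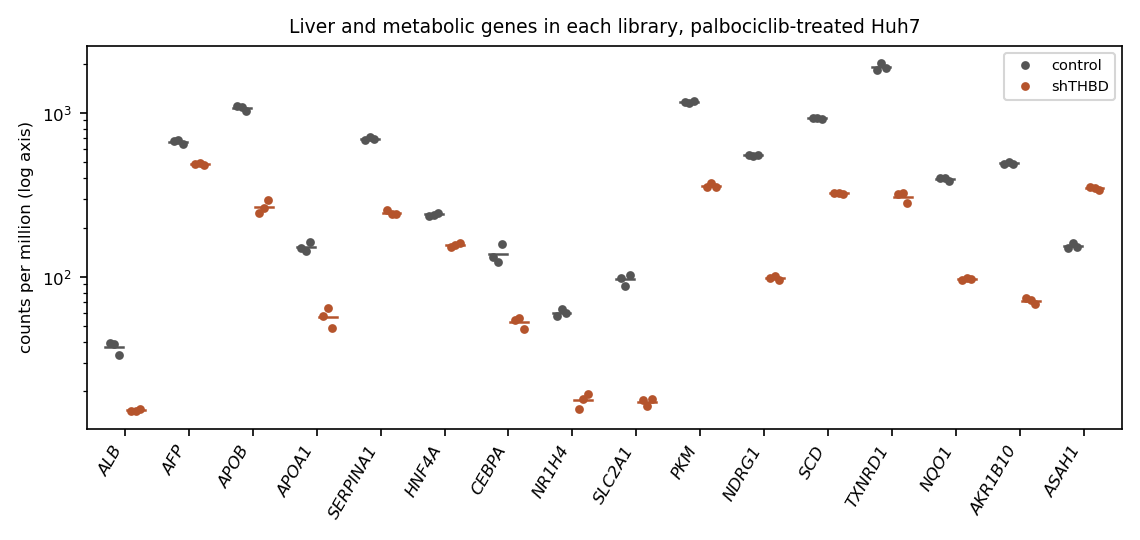
CPM (log axis) of 16 liver, metabolic, antioxidant and lysosomal genes in each control (grey) and shTHBD (orange) library; bars mark group means. From ALB to AKR1B10 each gene lies lower in all 3 shTHBD libraries, and ASAH1, acid ceramidase, lies higher in all 3.

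Liver identity was checked with 12 hepatocyte markers, all of which passed the filter. Their summed level was 7760 to 7983 CPM in control and 5493 to 5876 in shTHBD; 10 fell and 2 rose (median −1.09), and every one was detected in both groups. APOB, the backbone of secreted lipoproteins, fell from 1102, 1090 and 1034 to 246, 262 and 294 CPM (−2.03 ± 0.0639 (SE), adjusted p = 8.4e-23), SERPINA1, alpha-1 antitrypsin, from 684, 715 and 692 to 257, 241 and 241 (−1.53 ± 0.0538 (SE), adjusted p = 1.4e-21), and TTR, transthyretin, from 1172, 1198 and 1223 to 694, 682 and 620.4 (−0.88 ± 0.0506 (SE), adjusted p = 4.8e-16). ALB, albumin, was low for a liver gene, at 39.2, 39.2 and 33.4 CPM against 15.2, 15.3 and 15.6 (−1.31 ± 0.101 (SE), adjusted p = 7.6e-13), and APOA1, the HDL apolipoprotein, went from 149.9, 144 and 164 to 57.4, 64.8 and 48.7 (−1.45 ± 0.0754 (SE), adjusted p = 3.2e-17). All 5 were lower in every shTHBD library. The risers were FGB, fibrinogen beta, at 2300, 2402 and 2224 against 2600, 2617 and 2600 CPM (0.15 ± 0.0484 (SE), adjusted p = 0.011, but 0.075 without control replicate 3 and 0.053 with the replicate block), and APOH (0.26).

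The secreted products of the liver followed this pattern in different degrees. Of 18 apolipoprotein and assembly genes 16 fell and 1 rose, and of 22 liver-made coagulation factors 17 fell and 1 rose. Of 26 genes in the acute-phase list, 6 of them signalling genes, 20 fell and 4 rose. SERPIND1, heparin cofactor II, an inhibitor of thrombin, went from 182, 192 and 179.8 to 38.2, 43.2 and 44.1 CPM (−2.17 ± 0.0706 (SE), adjusted p = 1.9e-22), and F12, the factor of contact activation, from 16.3, 18.9 and 19.4 to 4.27, 2.85 and 3.16 (−2.44). SAA2, an acute-phase apolipoprotein, had the largest fall of the genes with at least 10 CPM in a group, from 38.7, 50 and 49.5 to 1.95, 4.52 and 2.8 CPM (−3.92 ± 0.161 (SE), adjusted p = 7e-20), and its near copy SAA1 went from 40.8, 54 and 57.4 to 20, 22.4 and 15.8 (−1.42); the split of reads between these copies is uncertain. Neither overlapped between groups. Acute-phase genes that rose were HPX (0.29), LBP (1.40) and LCN2 (1.09), and the signalling gene that rose was the kinase JAK1 (0.55). Complement was mixed, 8 fallen and 7 risen of 27, with VTN, vitronectin, an inhibitor of the terminal complex, at 859, 852 and 913 against 232, 236 and 226 CPM (−1.95 ± 0.0535 (SE), adjusted p = 2.8e-24).

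Of 21 liver transcription factors 14 fell and 2 rose, FOXA2 (0.24) and ONECUT2 (0.57). HNF4A, the master factor of hepatocytes, fell by less than 2-fold, from 237, 240.1 and 247 to 151, 156 and 161 CPM (−0.66 ± 0.0583 (SE), adjusted p = 2e-11), and CEBPA from 132, 124 and 158 to 54.6, 56 and 48.1 (−1.41 ± 0.0767 (SE), adjusted p = 9.7e-17). NR1H4, the bile acid receptor FXR, fell from 57.8, 63.4 and 60.1 to 15.6, 17.9 and 19.4 CPM (−1.80 ± 0.0935 (SE), adjusted p = 3.1e-17), and NR1I2, the drug receptor PXR, from 15.6, 15.3 and 15.3 to 3.57, 1.86 and 1.91 (−2.68 ± 0.19 (SE), adjusted p = 8.3e-14). These 4 factors did not overlap. No urea cycle gene rose, and 13 of 21 in that list fell, among them ASL (−1.66), ASS1 (−1.34) and OAT, ornithine aminotransferase (−1.97). Of 23 bile acid genes 10 fell and none rose; SLCO2B1, an uptake carrier (−2.22), and FGFR4, the receptor for the intestinal signal that slows bile acid synthesis (−2.05), fell most of those with at least 5 CPM in a group.

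Drug-handling enzymes were mixed, 15 fallen and 8 risen of 41. UGT2B15, which conjugates androgens, rose from 10.2, 10.3 and 10.6 to 55.3, 55.8 and 59.8 CPM (2.43 ± 0.0972 (SE), adjusted p = 3.7e-20), and CYP26A1, which breaks down retinoic acid, from 1.93, 2.05 and 1.66 to 12, 11.2 and 13 (2.65 ± 0.19 (SE), adjusted p = 1.1e-13), while CYP4F3 fell from 29.4, 29.1 and 26.1 to 3.24, 5.35 and 4.54 (−2.72). The groups were apart for all 3. UGT2B15 and CYP4F3 belong to families of close copies, so their counts are uncertain. Of 18 oncofetal genes 9 fell and 4 rose. AFP, alpha-fetoprotein, fell by a modest step, from 672, 687 and 647 to 491, 496 and 484 CPM (−0.48 ± 0.0519 (SE), adjusted p = 1.9e-09), H19, an imprinted RNA, from 86.9, 84.6 and 96.1 to 23, 19.3 and 24.2 (−2.04 ± 0.0882 (SE), adjusted p = 3e-19), and SOX9, a biliary and progenitor factor, from 48.6, 42.1 and 45.1 to 11.9, 11.4 and 10.8 (−2.02 ± 0.101 (SE), adjusted p = 1.1e-17); GPC3 was not called (−0.04, adjusted p = 0.59). Of 20 iron genes 13 fell and 2 rose, with HMOX1, heme oxygenase, at 17.1, 16.3 and 19.5 against 5.52, 6.58 and 6.58 CPM (−1.53) and HJV, a co-receptor of the hepcidin signal, at 10.9, 9.49 and 12.5 against 1.7, 1.35 and 1.74 (−2.81).

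In some lists more genes rose than fell. Of 44 lysosomal genes 24 rose and 12 fell (median 0.21), and of the 28 hydrolases among them 18 rose and 7 fell. LAMP1, a membrane protein of lysosomes, went from 458, 435 and 464 to 950, 951 and 918 CPM (1.03 ± 0.0517 (SE), adjusted p = 1.5e-17), ASAH1, acid ceramidase, from 149, 161 and 152 to 351, 348 and 339.9 (1.14 ± 0.0561 (SE), adjusted p = 7.7e-18) and CTSA, cathepsin A, from 308, 302 and 321 to 661, 657 and 591 (1.01 ± 0.0538 (SE), adjusted p = 6.4e-17). GLB1, the lysosomal beta-galactosidase whose activity is the standard stain for senescence, rose 1.42-fold, from 717, 720.4 and 725 to 1096, 1114 and 932 CPM (0.51 ± 0.0541 (SE), adjusted p = 1.1e-09). The shTHBD libraries were the higher ones for all 4. Against the group, TFEB, a factor that drives lysosomal genes, was low and fell (−1.84), as did SQSTM1, an autophagy receptor, from 470.2, 456 and 499 to 193, 208 and 192 CPM (−1.29 ± 0.0559 (SE), adjusted p = 2.8e-19), and the hydrolase NAGLU (−1.51).

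Of 9 metallothioneins and their factor, 6 rose and none fell, and of 10 zinc transporters 6 fell and 1 rose. MT2A, which buffers zinc and copper, rose from 9.35, 7.89 and 9.21 to 27.1, 27.7 and 28.4 CPM (1.62 ± 0.117 (SE), adjusted p = 1.3e-13) and MT1G from 1.68, 1.5 and 1.66 to 7.3, 9.71 and 5.34 (2.18 ± 0.239 (SE), adjusted p = 2.1e-09); these are near-identical copies whose reads may be split. SLC39A14, an importer of zinc, iron and manganese, fell from 699.8, 733 and 724 to 234, 236 and 216 CPM (−1.68 ± 0.0534 (SE), adjusted p = 1.1e-22), SLC39A8 from 128, 132 and 133 to 33.8, 34.5 and 35.7 (−1.94) and SLC39A5 from 16, 16.1 and 16.4 to 2.16, 0.753 and 0.801 (−3.73). All 5 genes named here were separated between groups.

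Of the 12 tRNA synthetases in the integrated stress response list, 10 rose and 2 fell, WARS1 (−0.38) and YARS1 (−0.56), with a median of 0.51. GARS1, for glycine, rose from 196, 194 and 174 to 402, 375 and 412 CPM (1.05 ± 0.062 (SE), adjusted p = 9.2e-16), and AARS1, for alanine, from 388, 390.2 and 391 to 716, 737 and 718 (0.87 ± 0.0515 (SE), adjusted p = 1e-15). The regulators of this response did not move as one: ATF3 rose from 16.8, 17 and 19.7 to 46, 47.3 and 47.1 CPM (1.36 ± 0.0931 (SE), adjusted p = 3.3e-14), ATF5 fell from 20.3, 23.2 and 25 to 7.05, 7.65 and 8.32 (−1.60 ± 0.127 (SE), adjusted p = 1.4e-12), and ATF4, its central factor, was not called (0.14, adjusted p = 0.053), though it was called higher without shTHBD replicate 3 (0.20, adjusted p = 0.00099) and under upper-quartile scaling (0.19, adjusted p = 0.0089). ATF4 was also called higher with DESeq2 size factors (adjusted p = 0.041), total counts only (0.03) and a mean of at least 1 CPM (0.04). The same held by DESeq2 (0.048), by voom (0.046) and without mitochondrially encoded genes (0.046). Over the whole list 20 rose and 14 fell of 44. Proteasome genes went down by small steps, 20 fallen and 1 risen of 31 (median −0.22), the riser being PSMD12 (0.21), which was not called without shTHBD replicate 3 (adjusted p = 0.06) or control replicate 3 (0.098). PSMD14, the deubiquitinase of the lid, fell furthest (−1.02).

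Calls among mitochondrial transcripts depended on shTHBD replicate 3 and on other settings. Of 13 messenger RNAs encoded in the mitochondrial genome 2 rose and 4 fell, and without shTHBD replicate 3 the counts were 1 and 9. Among the falls, MT-ATP6 and MT-ND4L were not called by DESeq2 (adjusted p = 0.21 and 0.22) or without shTHBD replicate 2 (0.06 for both). MT-ND4L was also not called without shTHBD replicate 1 (0.083). MT-ND1, a complex I subunit, was at 2711, 2450 and 2329 CPM in control and 3510, 3359 and 4105 in shTHBD (0.52), with replicate 3 the highest. The ribosomal RNA MT-RNR1 rose from 839, 838 and 798 to 1848, 1883 and 2138 CPM (1.22 ± 0.0587 (SE), adjusted p = 4.5e-18) and MT-RNR2 from 13130, 12660 and 11990 to 18490, 18270 and 22420 (0.62). Of 44 nuclear-encoded respiratory genes 19 fell and 3 rose (median −0.17), with COX5B, a complex IV subunit, at 84.9, 94.7 and 106 against 44.5, 56.9 and 37.4 CPM (−1.07 ± 0.0942 (SE), adjusted p = 1.6e-11).

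Death and survival genes each went both ways. Of 11 pro-death members of the BCL2 family 6 rose and 4 fell. BMF, a BH3-only protein, rose from 55.7, 52.9 and 56.2 to 179, 178 and 174 CPM (1.66 ± 0.0643 (SE), adjusted p = 1.9e-20), and BCL2L11, BIM, from 47.9, 47 and 55.5 to 146, 149.7 and 142 (1.51 ± 0.0695 (SE), adjusted p = 1.3e-18). BBC3 went from 6.25, 5.14 and 7.45 to 14.5, 15 and 12.8 CPM (1.14 ± 0.151 (SE), adjusted p = 1e-07). Each was above every control library. Of 7 survival genes 4 fell and 2 rose; BIRC5, survivin, which is also a mitotic gene, fell from 20.8, 21.2 and 23.3 to 3.9, 3.76 and 2.89 CPM (−2.65 ± 0.146 (SE), adjusted p = 1.3e-16), and BCL2L1, BCL-XL, fell by a smaller step (−0.52). The death receptor TNFRSF10B went from 302, 315 and 318 to 116, 112 and 106 CPM (−1.51 ± 0.0572 (SE), adjusted p = 9.2e-21) and the decoy TNFRSF10D from 95.1, 96 and 97.8 to 21.2, 16.2 and 18.3 (−2.40 ± 0.0869 (SE), adjusted p = 2.8e-21). Caspase genes mostly did not pass the test, CASP9 among them (0.07, adjusted p = 0.73), but CASP4, the inflammatory caspase, fell (−1.12 ± 0.0734 (SE), adjusted p = 1.2e-14).

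Of 19 epithelial genes 12 fell and 1 rose, CLDN3, which was low (1.86). CDH1, E-cadherin, fell from 717, 668 and 664 to 333, 329 and 350.1 CPM (−1.05 ± 0.0567 (SE), adjusted p = 9.5e-17), and KRT18, a keratin of simple epithelia, from 1022, 1026 and 1054 to 482, 511 and 463 (−1.12 ± 0.0512 (SE), adjusted p = 1.1e-18). The 13 mesenchymal genes split evenly, 5 risen and 5 fallen. VIM, vimentin, rose from 377, 395 and 362 to 689.9, 680.1 and 679 CPM (0.83 ± 0.0535 (SE), adjusted p = 8.6e-15) and CDH2, N-cadherin, from 659.7, 652 and 625 to 906, 898 and 977 (0.49 ± 0.055 (SE), adjusted p = 2.9e-09), whereas FN1, fibronectin, fell (−0.38) and so did AXL (−0.71). No group overlap was seen for CDH1, KRT18, VIM or CDH2. Of 39 collagen and matrix genes 18 fell and 10 rose; COL1A2 rose from 186, 194 and 187 to 399.9, 422 and 368 CPM (1.04 ± 0.0562 (SE), adjusted p = 8.6e-17), its partner chain COL1A1 was not called (−0.02, adjusted p = 0.77), and the basement membrane chain COL4A1 (−2.57) and the crosslinking enzyme LOX, from 124, 128 and 124 to 43.2, 44.4 and 38.4 CPM (−1.61 ± 0.0691 (SE), adjusted p = 2.5e-19), fell. Of 15 integrins 6 rose and 2 fell, and of 6 beta chains 4 rose, among them ITGB1, from 1196, 1218 and 1115 to 1766, 1725 and 1809 CPM (0.56 ± 0.0521 (SE), adjusted p = 6.1e-11), and ITGB8 (1.58).

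Of the 24 clustered histone genes tested 10 rose and 3 fell. H2AC11 went from 2.69, 2.5 and 3.67 to 14.4, 15.1 and 10.9 CPM (2.16 ± 0.18 (SE), adjusted p = 4.2e-12), H2BC8 from 6.05, 6.54 and 3.93 to 18.3, 18.4 and 13.7 (1.57 ± 0.164 (SE), adjusted p = 6.8e-10) and H2BC21 from 30.5, 29.1 and 29.7 to 59.9, 60.1 and 50.3 (0.90 ± 0.0847 (SE), adjusted p = 7e-11). Most histone messages of these clusters end without a poly(A) tail, and the copies are near-identical, so their counts are uncertain. In shTHBD replicate 3 all 3 genes were below the other shTHBD libraries.

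Among genes with at least 10 CPM in a group and groups that did not overlap, the 12 largest rises were led by ASB2, a substrate adaptor of ubiquitin ligases, from 3.56, 2.1 and 1.29 to 29.9, 29.7 and 27.8 CPM (3.62 ± 0.181 (SE), adjusted p = 1.2e-17), and CATSPERG, a subunit of the sperm calcium channel, from 1.98, 1.8 and 1.66 to 20.1, 23.6 and 17.7 (3.46 ± 0.17 (SE), adjusted p = 7.9e-18). GLIPR1 (chr12:75480753-75503863), a secreted and membrane protein of the CAP family, was the most abundant of them, at 29.8, 28.8 and 32.8 against 294, 284 and 275 CPM, 9.16-fold higher (3.19 ± 0.0675 (SE), adjusted p = 1.7e-27). CHI3L1, the secreted glycoprotein YKL-40, rose from 4.78, 5.59 and 5.85 to 28.8, 28.6 and 24.4 CPM (2.31), and OSR1, a zinc-finger factor of kidney and limb development, from 5.23, 3.25 and 4.45 to 22.9, 21.3 and 20.6 (2.30). The other 7 were AC027237.3 (3.02), CYP26A1, UGT2B15, the non-coding LCAL1 (2.41), the pseudogene HNRNPA1P66 (2.33), NLRC5 and H2AC11. A pseudogene may share reads with its parent gene, and HNRNPA1P66 is uncertain for that reason.

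The 12 largest falls under the same rule included SAA2, CCL20, ETV4, EME1, RAD54L, SLC39A5, HLA-C, TROAP, UPK1B, LGALS14 and MKI67. Of those not yet described, TROAP, a spindle protein, fell from 21, 23.3 and 25.8 to 1.95, 2.3 and 1.65 CPM (−3.59), UPK1B, a uroplakin of the urothelium, from 63.8, 67.3 and 57.4 to 5.68, 6.3 and 5.16 (−3.48 ± 0.107 (SE), adjusted p = 4.1e-23), and LGALS14, a galectin known from placenta, from 39.6, 44.2 and 44.2 to 5.73, 4.68 and 2.49 (−3.33 ± 0.149 (SE), adjusted p = 6.1e-19). The 8 most abundant genes that changed by at least 2-fold included ACTB, MT-RNR1, TXNRD1, TGFBI, PKM, KRT18 and SPP1, and MT-RNR1 was the 1 of the 8 that rose. ACTB, beta-actin, often taken as a reference gene, fell from 4274, 3909 and 4197 to 1935, 1787 and 1912 CPM (−1.16 ± 0.0521 (SE), adjusted p = 6.5e-19), and SPP1, osteopontin, from 1014, 1008 and 983 to 410.5, 402 and 416 (−1.32 ± 0.0527 (SE), adjusted p = 3.6e-20). The 3 shTHBD values of both lay below all control values.

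Markers of other cell types were summed in the same way. Of 9 leukocyte markers 3 were tested and none was called, with a summed level of 10.2 to 11.2 CPM in control and 8.84 to 9.95 in shTHBD. Of 9 endothelial markers 4 were tested, 1 rose, VWF (1.04, not called without shTHBD replicate 1 or 3 or control replicate 2 or 3, at adjusted p = 0.064, 0.23, 0.21 and 0.069, nor by voom at 0.052 or with no filter beyond 1 count at 0.059), and 2 fell, among them PECAM1 (−0.72); their sum was 14.7 to 17.3 against 9.63 to 11.9 CPM. Of 10 tested cholangiocyte markers 4 fell and 1 rose, CFTR (0.91). Fibroblast and stellate markers summed to 736 to 769 CPM in control and 1042 to 1104 in shTHBD; 5 of 10 rose, among them COL1A2 and LUM, from 283, 277 and 255 to 353, 374 and 388 CPM (0.42), 1 fell, RGS5 (−0.30, not called without shTHBD replicate 1 at 0.057 or control replicate 1 at 0.092), and without shTHBD replicate 3 the risers were 4. DCN, a defining marker, was low, at 0.407, 0.699 and 0.155 against 0.747, 1.03 and 1.51 CPM. It was called higher (1.34 ± 0.549 (SE), adjusted p = 0.04), but not without control replicate 1 (0.11), control replicate 3 (0.21), shTHBD replicate 2 (0.052) or shTHBD replicate 3 (0.18), nor by DESeq2 (0.05), with the replicate block (0.064) or with no filter beyond 1 count (0.059). The part of other cells in the collagen values above was not tested.

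Changes were related to base composition over all genes. Among the 16975 tested genes with a known GC content (97.1%), the median log2 fold change was 0.13 in the quintile with the lowest GC of their transcripts (23.1 to 40.9%) and −0.16 in the quintile with the highest (57.7 to 83.9%). In the first of these 35.8% of the genes rose and 21.2% fell, and in the last 17.6% rose and 35.6% fell. Measured against the median of each gene's own quintile, the list medians shifted by differing steps. Mitosis went from −1.93 to −2.05, DNA replication from −1.41 to −1.32, NRF2 targets from −0.81 to −0.82 and SASP cytokines from −0.85 to −0.73. Hepatocyte markers went from −1.09 to −1.02 and cholesterol synthesis from −0.70 to −0.71. Lysosome went from 0.21 to 0.30 and the integrated stress response list from 0.14 to 0.25. The part of base composition in single genes or lists was not tested. Calls also varied with exon length. In the quintile of the shortest (42 to 2257 bases) 502 of 3497 genes rose and 735 fell, with a median of −0.03. In the quintile of the longest (7894 to 205012 bases) 1268 of 3495 rose and 920 fell, with a median of 0.09. The part of exon length in single genes or lists was not tested.

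The Huh7 effect was set against the shTHBD effect in IMR90, using the shTHBD libraries numbered 2 in their titles (set 2, n = 3) and the IMR90 controls (n = 3), in 1 joint fit of 16706 genes shared by both tables. Set 2 was taken because earlier results of these data had THBD below control in it. The other shTHBD libraries of IMR90 were not used. The lines differ in tissue, in the trigger of senescence and in the table they were counted in. No label says whether the hairpin against THBD was the same in both lines. The parts of tissue, trigger, table and hairpin cannot be told apart. The description of 1 of the set 2 libraries, replicate 3, names Huh7, but every other label of it names IMR-90, and it was used as an IMR90 library. The effects differed for 7198 genes, 43.1% of those tested, with the Huh7 effect above the IMR90 effect for 3670 and below it for 3528. In all, 15 genes of the thrombin axis, the cell cycle and the secretory programme with at least 5 CPM in a group of both lines were looked at, and the difference was called for 13.

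The chemokines CXCL8 and CCL20 fell in both lines. In the joint fit, from which all values of this paragraph come, CXCL8 changed by −1.84 in Huh7 and −3.25 in IMR90 on the log2 scale, a difference of 1.40 ± 0.0525 (SE), adjusted p = 2.3e-20. CCL20, chosen after its Huh7 value was seen, changed by −3.81 in Huh7 and −4.03 in IMR90, and its difference between lines was 0.22 ± 0.104 (SE), adjusted p = 0.089, which was called without set 2 replicate 3 (0.31, adjusted p = 0.029) or shTHBD replicate 3 of Huh7 (0.27, adjusted p = 0.033). CCND1 fell more in IMR90 (−2.23) than in Huh7 (−1.34), with a difference of 0.89 ± 0.0573 (SE), adjusted p = 2.9e-14. E2F1 fell more in Huh7 (−2.04) than in IMR90 (−1.49), with a difference of −0.55 ± 0.204 (SE), adjusted p = 0.03; without set 2 replicate 3 the difference was −0.36 and was not called (adjusted p = 0.21), and leaving out 4 other libraries in turn also ended the call (Huh7 shTHBD replicate 1 or 2, adjusted p = 0.054 and 0.068, or IMR90 control replicate 1 or 3, 0.052 and 0.073), as did voom (0.063). F3 moved in opposite directions, rising in IMR90 by 1.74 and falling in Huh7 (−1.14), so that the difference was −2.87 ± 0.0779 (SE), adjusted p = 5e-24. F2R rose in Huh7 (1.15) and fell in IMR90 (−0.65), a difference of 1.79 ± 0.0646 (SE), adjusted p = 1e-20. F2RL1 fell in IMR90 (−2.54) but was not called in Huh7, and here the difference was 2.46 ± 0.0898 (SE), adjusted p = 1.3e-20.

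**Figure D5:**
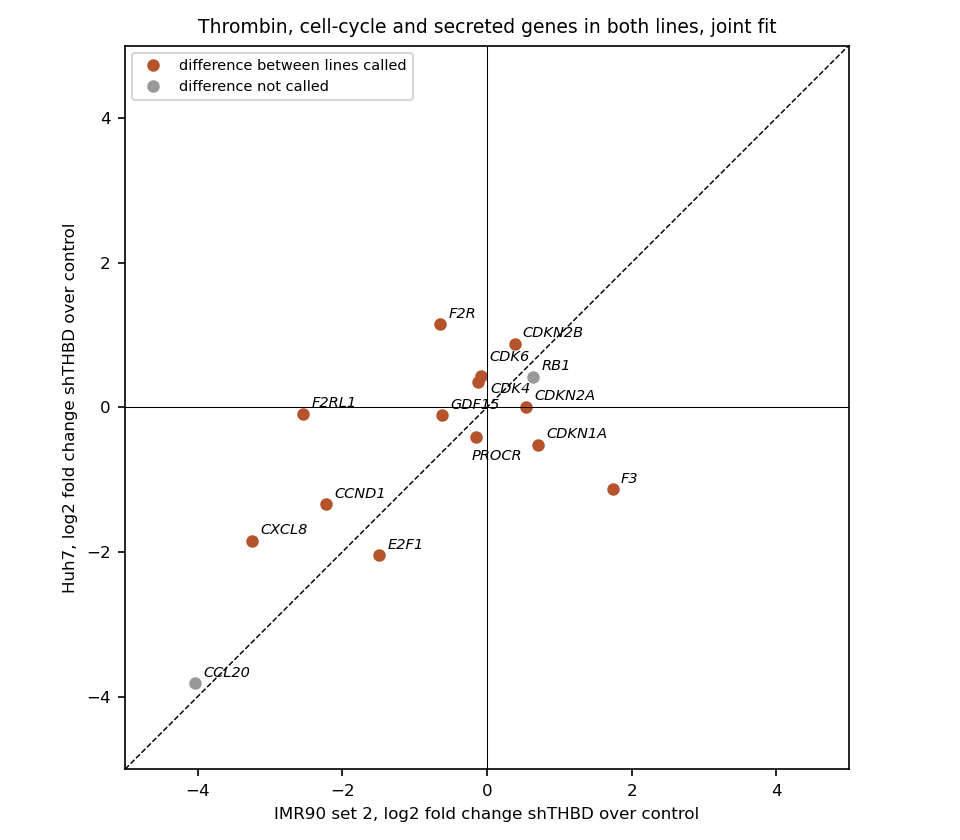
Log2 fold change of shTHBD over control in Huh7 (vertical axis) against that in IMR90 set 2 (horizontal axis) for 15 genes, from the joint fit; orange points have a called difference between lines, grey points do not, and the dashed line marks equal effects. CCL20 lies near the dashed line at the lower left, F3 lies at the lower right, and F2R lies at the upper left.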

How the data were processed

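The report covers 6 Huh7 libraries, with 6 of the 9 IMR90 libraries as a comparison. The authors deposited raw gene counts in 1 table per line, which were used unchanged. Per the submitters' processing notes, fastp, STAR and featureCounts were used on GRCh38; per the file headers, the IMR90 fragments were counted per gene name with no strand option, so overlapping and antisense genes can share reads. How the Huh7 counts were assigned to strands, and with which annotation, no source states. The exon length columns that featureCounts deposited (unit: bases, an other value) gave CPM per kilobase only in the tables. The Huh7 table held 59412 genes, of which 944 symbols were brought to their current form.

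The 6 Huh7 libraries were fitted alone by the quasi-likelihood test of edgeR 4.0.16 in R 4.3.3, after filterByExpr (17474 genes kept, 41938 left out) and TMM scaling, group being the only term. P was adjusted by Benjamini and Hochberg over all tested genes and called under 0.05. The common biological coefficient of variation was 8.2%. CPM are counts per 1000000 counts of a library, and the SE of a log2 fold change is its size over the root of the F statistic. Between lines, an interaction contrast was taken from a joint fit over the 38778 symbols shared by the tables, before filtering. The tests were tried on simulated counts.

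The rule for named genes took 26 fixed genes, then the 12 rises and 12 falls of largest size among called genes with at least 10 CPM in a group and groups that did not overlap, up to 4 called members per list with the largest change among those with at least 5 CPM in a group, and the 8 most abundant called genes that changed by at least 2-fold. Other members named beside a list, including exceptions to its direction, were chosen after their values were seen, and some genes that the rule names are not reported here. The gene lists and the comparison itself were chosen with earlier results of these data known. The labels do not call the replicates separate cultures, so the p-values rest on the spread between libraries alone, and that may be technical. Alternatives were other scalings, filters and tests (DESeq2 1.42.0, voom of limma 3.58.1), the replicate number as a block, and the removal of each library in turn. Of the tested genes, 458 had 50% or more of their exon bases under another row.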

Additional observations from a re-analysis of the deposited data

Results flagged for a closer look

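The effect of shTHBD differed between palbociclib-treated Huh7 and IMR90 set 2 for 13 of 15 chosen genes, against 43.1% of all 16706 genes tested. Both rest on the test of the difference in the joint fit of edgeR. Each value below is the Huh7 log2 effect minus the IMR90 log2 effect, with p adjusted over all genes tested. In the thrombin axis these were F2R (1.79), F2RL1 (2.46), F3 (−2.87) and PROCR (−0.25, adjusted p = 0.042). The call for PROCR is the least firm of these, since it was lost without Huh7 control replicate 1 (adjusted p = 0.08) or 2 (0.089), Huh7 shTHBD replicate 1 (0.057) or 3 (0.13), IMR90 control replicate 1 (0.05), 2 (0.082) or 3 (0.08), or set 2 replicate 1 (0.058) or 3 (0.1), and also with the replicate block (0.055) and with no filter beyond 1 count (0.068). In the CDK axis they were CDK4 (0.47), CDK6 (0.53), CCND1 (0.89), E2F1 (−0.55), CDKN1A (−1.23), CDKN2A (−0.53) and CDKN2B (0.50). CDKN1A rose in IMR90 (0.71) and fell in Huh7, while CDKN2B rose in both, by 0.38 in IMR90. Among secreted factors they were CXCL8 (1.40) and GDF15 (0.51). For RB1 the difference was not called (−0.21, adjusted p = 0.067), but it was without Huh7 control replicate 3 (−0.25, adjusted p = 0.031) or Huh7 shTHBD replicate 3 (−0.25, adjusted p = 0.023), under upper-quartile scaling (−0.25, 0.029) and with total counts only (−0.29, 0.012). CCL20, chosen after its Huh7 value was seen, was the other gene without a call. Tissue, trigger of senescence and counting table all differ between the lines, the hairpin may differ too, and these cannot be told apart.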

How the results depend on the processing

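No named gene reversed its direction under the 15 alternatives of the Huh7 comparison. Against 9280 calls, other scalings gave 9216 to 9368, other filters 9027 and 9040, DESeq2 8972, voom 9268, removal of mitochondrial genes 9273 and leaving out 1 library 8391 to 9189. Asking for at least 2-fold left 2384 calls, 921 higher and 1463 lower. Upper-quartile scaling moved the share of calls that were higher from 48.7% to 53.6% and total counts only to 51.5%, so that under these 2 scalings rises outnumbered falls. With the replicate number as a block, 8784 genes were called; the labels do not say that the numbers pair samples, deviations of same-numbered libraries correlated at −0.036, −0.0268 and −0.113, and no library correlated best with its own number. Differences between lines numbered 6641 to 7316 over all alternatives, with 6793 under the block. Of 308 named genes with a test, 21 changed their call under an alternative. List counts under each alternative and medians relative to GC quintiles were added after seeing the data. Depth limits THBD, the lowest chemokines (CXCL12, CCL26) and the markers near 1 CPM, where few counts decide a value.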

Other observations

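Other groups changed without a common direction. Of 28 tested ER chaperones and unfolded protein response genes 10 rose and 7 fell (median 0.04). The sensors EIF2AK3, PERK, from 37.9, 33 and 33.7 CPM in control to 61.5, 63.8 and 70.4 in shTHBD (0.88 ± 0.0856 (SE), adjusted p = 1.7e-10), and ATF6, from 41.9, 45.6 and 39.2 to 72.5, 72.4 and 74 (0.76 ± 0.0773 (SE), adjusted p = 4.3e-10), rose. The prolyl isomerase PPIB fell from 53.7, 53 and 54.1 to 23.6, 23.9 and 21.7 CPM (−1.25 ± 0.0846 (SE), adjusted p = 2.8e-14), and SDF2L1 fell too (−1.12). Of 20 cytosolic heat shock genes 10 rose and 7 fell; DNAJB4 (0.77), HSPB8 (0.63) and the chaperone HSPH1 (0.55) rose, and HSPA1A, which has a near-identical copy, fell (−0.92). Of 40 ribosome biogenesis genes 13 fell and 6 rose. NOP10 fell from 48.8, 52.1 and 57.2 to 8.05, 6.54 and 6.98 CPM (−2.90 ± 0.107 (SE), adjusted p = 4.3e-21), and NHP2 from 39.5, 43.9 and 45.7 to 15.3, 12.9 and 10 (−1.78 ± 0.112 (SE), adjusted p = 3.6e-15). Both encode proteins of the same small RNA-protein particle, and no other protein of it is reported here. Of the 26 processing genes in the list, only these 2 were called lower by at least 2-fold.

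In the Notch and biliary list 6 of 16 genes fell and 5 rose. The receptor NOTCH1 fell from 45, 37.7 and 43.6 to 13.9, 12.1 and 13 CPM (−1.72 ± 0.103 (SE), adjusted p = 1.3e-15) and the ligand DLL4 was low and fell (−1.83), while NOTCH2 (0.51) and the target HES4, from 30.9, 28.5 and 34.8 to 70.6, 72 and 54.4 CPM (1.03 ± 0.0921 (SE), adjusted p = 2e-11), rose. Of 18 Wnt genes 6 fell and 5 rose, with the secreted inhibitor DKK1 at 36.6, 38.1 and 38.6 against 14.3, 14.8 and 13.6 CPM (−1.44 ± 0.0971 (SE), adjusted p = 2.6e-14). In senescence-linked chromatin 17 of 33 genes fell and 8 rose; the histone chaperone ASF1B fell from 33.9, 34.1 and 32.9 to 7.76, 4.83 and 5.61 CPM (−2.50 ± 0.132 (SE), adjusted p = 4.4e-17), the methyltransferase SUV39H1 from 32.1, 33.1 and 36 to 9.17, 8.76 and 6.63 (−2.07 ± 0.117 (SE), adjusted p = 2.8e-16), and all 6 HMG genes fell, HMGB3 by the most among those with at least 5 CPM (−1.02). The lamin B receptor LBR went from 56, 52.8 and 52.3 to 25.9, 24.6 and 24.4 CPM (−1.14 ± 0.0848 (SE), adjusted p = 3.2e-13). All shTHBD values of NOTCH1, DKK1, ASF1B, SUV39H1 and LBR lay below the control values.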
